A study of Rattus norvegicus with 458 samples.

Results

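The entries described here are small RNAs that aligned to a miRNA hairpin without being one of its annotated mature arms, and that the authors therefore listed under the hairpin's name followed by "-pre". Members were the rows of the deposited miR-level table with a single such name and 100 or more counts summed over all libraries. This gave 89 of the 1882 single -pre entries in a table of 7534 names. The total count is the value that chose the members, so it is given as a description only. At the threshold, mir-3472-pre with 100 counts and chr3_11173-pre with 102 counts were inside, and mir-6127-pre with 99 and chr9_27349-pre with 98 were outside. Together the 89 entries held 506079 of 1050166585 counts, or 0.0482%, while single mature names held 90.2%. Of the 89, 45 carry the name of a miRBase hairpin and hold 448430 counts, and 44 carry a chromosome-based name of a hairpin predicted by the authors and hold 57649. The miRBase names come from rat for 13 members, from mouse for 21, from human for 10 and from C. elegans for 1, because reads were aligned to the hairpins of each of these species.

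The libraries came from naïve Sprague Dawley rats, 5 male and 5 female, aged 12 to 13 weeks, with no treatment, transgene or deletion in any group. Small RNA of 23 tissues was sequenced: 19 tissues from all 10 rats, the testis from the 5 males, the ovary and the uterus from the 5 females, and the dorsal root ganglion as 10 technical libraries of 2 pools. The paper states that Takeda Pharmaceuticals supplied the dorsal root ganglion RNA, so its pools may come from other animals. A difference of source cannot be told apart from one of tissue there. All libraries are of whole tissue homogenates, so fewer cells of a type and less RNA per cell cannot be told apart. Levels are given as CPM, counts scaled to a library total of 1000000.

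A miRNA hairpin is cut by Drosha in the nucleus and by Dicer in the cytoplasm, which leaves a duplex of a 5p and a 3p arm and frees the terminal loop. Usually a single arm of the duplex is kept in an Argonaute protein, where bases 2 to 8, the seed, pair with target mRNAs. The other arm, the loop and the flanks of the hairpin are degraded more often and are found at lower levels. Where an annotation lists a single arm, reads of the other arm have no mature name. Mirtrons, such as mir-877 and mir-1224, are hairpins released by splicing of a short intron in place of Drosha cleavage.

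The most counted sequences of the entries that resembled a second arm of their hairpin are shown first, since length and start are what set these entries apart from the others. They are written 5′ to 3′ as DNA, as deposited, with the seed in capitals. For mir-431-pre a second sequence with an earlier start is added.
mir-335-pre: tTTTTCATtattgctcctgacc
mir-431-pre: cAGGTCGTcttgcagggcttct
mir-431-pre, second: tTGCAGGTcgtcttgcagggctt
mir-3102-pre: gAGCACCCcattggctacccaca
mir-877-pre: tGTCCTCTtctccctcctccca
mir-1224-pre: cCCCACCTcttctctcctcag
mir-504-pre: aGGGAGAGcagggcagggtttct
None of these seeds matched the seed of a mature miRNA in the RefSeq rat table used here (0 matches for each sequence). The sequences of mir-335-pre, mir-431-pre and mir-3102-pre are those known in other species as the 3p arms of these hairpins.

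Loop sequences are shown next, because they lie between a pair of annotated arms. Those of let-7 begin directly after the 5p arm, and that of mir-29b-1-pre begins within its last bases.
let-7f-2-pre: ttagggtcataccccatcttgga
let-7c-2-pre: ttgggctctgccccgctctgcggt
let-7a-1-pre: ttagggtcacacccaccactggg
mir-29b-1-pre: tttaaatagtgattgtc
The most counted sequences of 4 entries with broad lengths, and of 3 that were high in the testis, are shown for contrast.
mir-7641-2-pre: aagctaagcagggtcgggcctggt
mir-6240-pre: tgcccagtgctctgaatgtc
mir-6236-pre: ccctgaaaatggatggcgctg
mir-6087-pre: ccgaggggctctcgcttctggcgcc
mir-3473f-pre: tgactgctcttccagaggt
mir-1954-pre: tctctgtgtagccctgactatcc
mir-1195-pre: aggcaggcagatctctgag
The stretch of mir-7641-2-pre lies within 5S ribosomal RNA, a component of the large ribosomal subunit, which is background knowledge and was not tested against a ribosomal reference here.

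Some libraries need to be named before the values. Totals lay between 376401 and 17725805 counts (median 4816409), and the testis libraries were the smallest at 376401 to 653651 counts. Of 215 libraries, 10 resembled the libraries of another tissue more than their own in correlation over 855 names, with a gap of 0.0668 or more against 0.0194 or less in all others. They were 4 duodenum, 3 hippocampus, and 1 adrenal, ovary and uterus library each. Neuronal miR-124-3p lay between 0.568 and 6423 CPM over all hippocampus libraries and between 4054 and 6423 CPM without these 3. The liver libraries followed their label, with miR-122-5p, the dominant hepatocyte miRNA, at 25926 to 40363 CPM. A further 14 libraries, 1 in each of 14 tissues and none of the former 10, had displaced 5′ ends. Over the 50 most counted mature names, a median of 45.2 to 52.9% of their counts began at the usual base, against 95.1 to 99.4% in the other 201 libraries. The summed level of the 89 entries in these libraries lay within the range of the tissue's other libraries in 13 of 14 cases, the exception being a testis library (rat 5) at 784 CPM against 1043 to 1693 CPM.

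The 89 entries differed from mature miRNAs in the form of their reads. The most counted sequence had 20 to 24 bases in 42 of 89 entries (47.2%), against 92.0% of 722 single mature names with 100 or more counts. A median of 43.2% of an entry's counts began with the most common first bases, against 92.1% for mature names. Reads of 20 to 24 bases made up a median of 36.7% of an entry and 98.0% of a mature name. Mean length had a median of 19.9 bases for entries and 21.9 bases for mature names. Reads shorter than 17 bases were removed by the authors, so the lower side of these lengths is cut off.

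**Figure D1:**
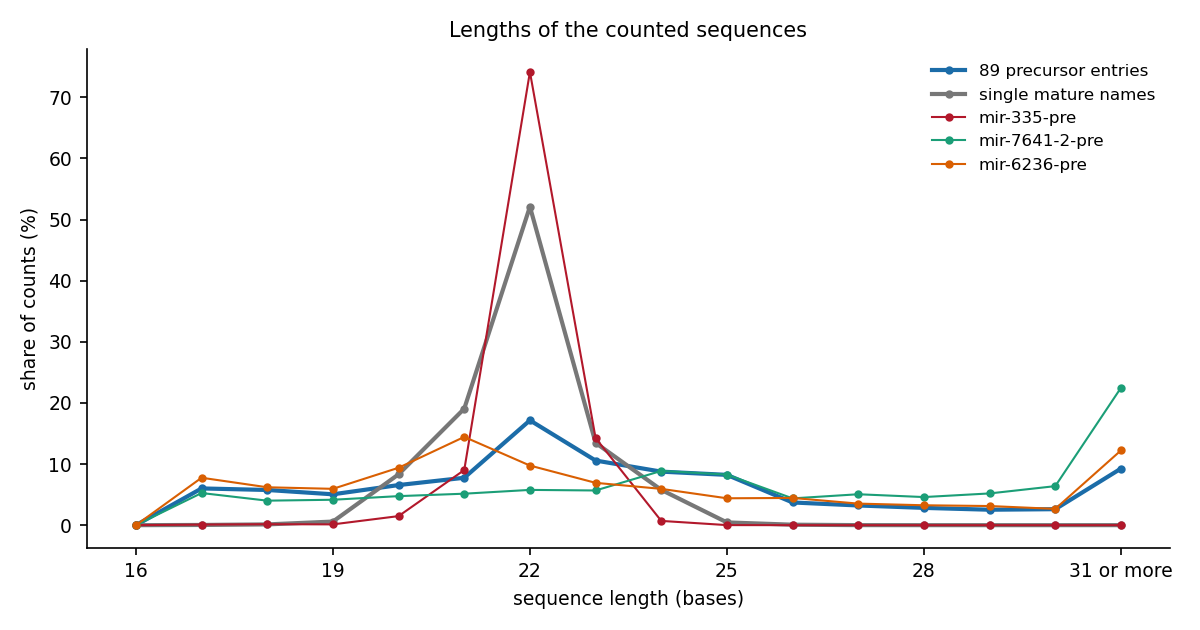
Share of counts in percent (y axis) by sequence length in bases (x axis, with 31 or more in the last bin), summed over all libraries, for the 89 entries together, the single mature names, and mir-335-pre, mir-7641-2-pre and mir-6236-pre. Sequences of 20 to 24 bases made up 99.6% of mir-335-pre, but 30.2% of mir-7641-2-pre and 46.4% of mir-6236-pre.

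The most counted entries that resembled a second arm of their hairpin were mir-335-pre, mir-431-pre and mir-3102-pre. The first comes from a hairpin in an intron of Mest, the second from the imprinted Dlk1-Dio3 region and the third from a hairpin within Arhgef17. For mir-335-pre a mature name of the 3p arm, miR-335-3p, is also in the table, as described below. These 3 had 50111, 42355 and 34966 counts, and all 3 had their highest mean levels in brain tissues.

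mir-335-pre was highest in the cerebrum and was also high in the liver. Cerebrum libraries lay between 213 and 374 CPM with a median of 283 CPM and a mean of 291 ± 45.2 CPM (SD, n = 10). Brainstem libraries lay between 150.1 and 291 CPM, with a mean of 183 ± 42.3 CPM. In the liver the lowest library was at 46.5, the median at 73.6 and the highest at 423 CPM, so the liver overlapped both brain tissues. Whole blood was lowest, at 0 to 0.793 CPM. In edgeR's quasi-likelihood test with Benjamini-Hochberg adjustment, the cerebrum exceeded the mean of the other 22 tissues by 2.67 on the log2 scale (SE 0.20, adjusted p = 2.43e-28). The entry was called higher in 10 tissues and lower in 6. The test uses upper quartile scaling and ranks tissues differently from CPM, as the liver had a larger log2 fold change (3.34, SE 0.19) than the cerebrum despite its lower level.

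The annotated arm miR-335 varied along with the entry. The entry held 38.6% of the counts of entry and arms. Tissue means of this share ran from 28.6% in the kidney cortex to 49.1% in the uterus, and the cerebrum stood at 43.5 ± 3.06% (SD, n = 10). The entry exceeded the arms in 13 of 199 libraries with 10 or more counts. The table lists both miR-335 and miR-335-3p as arms, and 98.7% of the entry's counts share 15 bases with reads of these names, but only 0.0376% of the arms' counts share 15 bases with the entry. A start at the most common position was found in 79.9% of counts, and 64.2% had exactly the sequence shown above. No hairpin sequence of mir-335 was in the reference used, so the place of its reads was not analysed here.

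mir-431-pre was highest in the brainstem, the cerebrum and the hippocampus, in level and in its share against the annotated arm. It was not confined to the brain, and was called higher in 9 tissues and lower in 9. Brainstem libraries lay between 218 and 371 CPM (median 239.8, mean 255 ± 45.8 CPM, n = 10). Cerebrum libraries lay between 149 and 243 CPM (mean 200.2 ± 30 CPM), overlapping the brainstem, and cerebellum libraries between 54.5 and 75.1 CPM, below both. The hippocampus had 164 to 239 CPM in the 7 libraries that matched their label and 146 ± 103 CPM over all 10. In the duodenum the mean was 79.2 CPM with all libraries and 0.957 CPM without the 4 that resembled other tissues, where it reached at most 2.98 CPM. The adrenal lay at 40.7 to 118 CPM in 9 libraries, overlapping the cerebellum, and whole blood was at 0 to 0.145 CPM. The brainstem exceeded the mean of the other tissues by 5.30 on the log2 scale (SE 0.28, adjusted p = 1.27e-43 in edgeR's quasi-likelihood test with Benjamini-Hochberg adjustment).

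The reads of mir-431-pre lay on the 3′ side of the hairpin, facing the single annotated arm. The rat hairpin Mir431 is at chr6:134326449-134326562 on the plus strand (RefSeq, GRCr8), within the span of Rtl1, a gene of the imprinted region whose antisense strand carries miRNA hairpins. In the hairpin below, the first run of capitals is the annotated miR-431 and the second is the most counted sequence of the entry.
Mir431 hairpin: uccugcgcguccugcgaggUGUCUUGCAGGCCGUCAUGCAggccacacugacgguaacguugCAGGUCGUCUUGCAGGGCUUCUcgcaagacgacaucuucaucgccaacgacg
On this hairpin 90.2% of counts matched the side without an annotated arm, none had most of its length on the arm, and 9.61% had no exact match. Pooled over all libraries, 43.8% of counts carried the first 8 bases that begin at hairpin base 60, 23.2% those at base 61 and 28.2% those at base 63.

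Among libraries that matched their label, the entry's share of the counts of entry and arm separated the brainstem from the other tissues. In the brainstem it was 73.1 ± 3.78% (SD, n = 10), between 65.5 and 78.8%. In the cerebrum it was 51.7 ± 2.9%, between 48.1 and 57.5%, with no overlap with the brainstem. In the cerebellum it was 43.4 ± 8.21% and in the dorsal root ganglion 33.1 ± 4.31% over technical libraries of 2 pools. In the adrenal it was 3.33 to 4.32% in the 9 libraries that matched their label, where the arm miR-431 reached 1670.2 CPM on average over all 10. The soleus and the biceps femoris, both hind limb muscles, had 5.34 ± 1.52% and 4.99 ± 1.4%. The shares of the adrenal and of both muscles overlapped and lay below every brain library that matched its label. Low shares were not particular to them. From few counts, the non-glandular stomach had 1.61 to 10.9% and the pancreas 3.70 to 15.4%. The duodenum library of rat 7, which resembled another tissue, had the highest share of any library, at 78.9%. The tissues named were singled out after their values were seen, so no test of the difference is given.

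The start of the reads also set the brainstem apart from 5 other tissues. Without the libraries with displaced 5′ ends, reads beginning at base 63 made up 15.7 ± 1.4% of mir-431-pre in the brainstem, between 14.4 and 18.5% over 9 libraries. The same share was 34.0 ± 3.96% in the cerebrum, 36.1 ± 3.49% in the cerebellum and 34.5 ± 3.84% in the hippocampus. It was 30.8 ± 2.29% in the adrenal and 46.0 ± 8.24% in the dorsal root ganglion, and no library of these 5 tissues was below 26.6%. Reads from base 60 took up most of the difference, at 54.1 ± 1.78% in the brainstem and 42.2 ± 2.84% in the cerebrum. With the displaced libraries included, the share at base 63 was 14.7 ± 3.41% in the brainstem, and the lowest cerebrum library was at 10.4%. Tissues with few reads of the entry came nearer. The lowest undisplaced library was at 21.7% in the biceps femoris and at 22.2% in the soleus. An ileum library with 11 counts of the entry, at 18.2%, lay within the range of the brainstem. The duodenum library of rat 7, which resembled another tissue, was at 19.9% with 712 counts of the entry. This contrast was also noticed in the data and received no test.

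**Figure D2:**
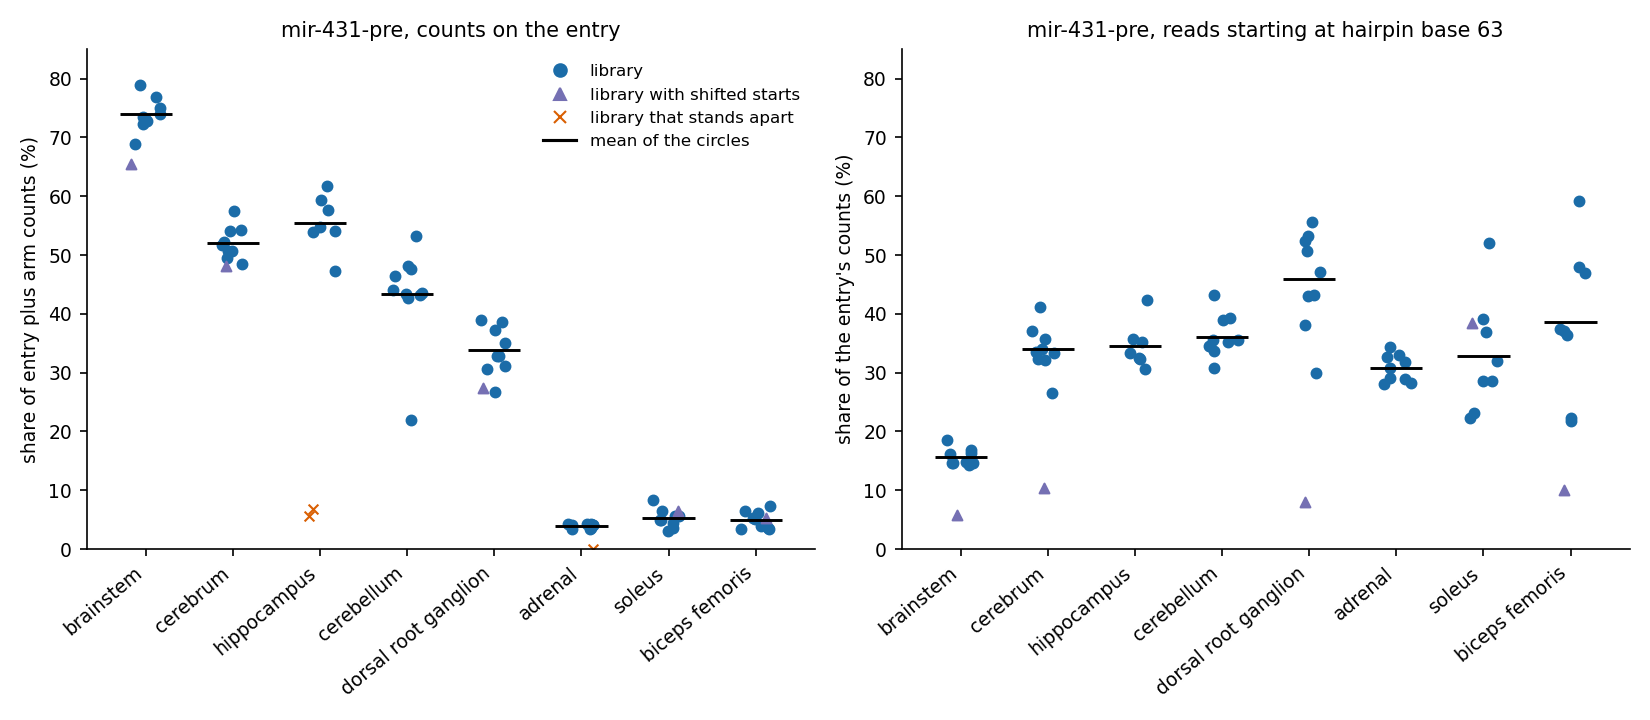
Left, the percent of the counts of mir-431-pre and miR-431 that lie on the entry; right, the percent of the entry's counts that start at hairpin base 63, both by tissue. Each symbol is a library with 10 or more counts: circles, libraries whose starts were not displaced and that matched their label, triangles, libraries with displaced starts, and crosses, libraries that resembled another tissue; the line is the mean of the circles. Among the 8 tissues shown, brainstem libraries hold the highest share on the entry, at 65.5 to 78.8%, and, of the circles, the lowest share at base 63, at 14.4 to 18.5%; several triangles lie lower.

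mir-3102-pre exceeded its annotated arm nearly everywhere it was found. It had 34966 counts against 6648 on miR-3102, or 84.0% of both, and was above the arm in 180 of 180 libraries with 10 or more counts. Levels were 93.6 to 297 CPM in the brainstem (mean 149 ± 67.3 CPM), 86.2 to 152 CPM in the cerebrum and 113 to 203 CPM in the 7 hippocampus libraries that matched their label. The mean of those 7 was 150.5 CPM, so the order of brainstem and hippocampus rests on the 3 others. The share on the entry ran from 72.7 ± 2.98% in the cerebellum to 94.2 ± 2.41% in the dorsal root ganglion. The brainstem exceeded the mean of other tissues by 1.84 on the log2 scale (SE 0.21, adjusted p = 2.18e-14 in edgeR's quasi-likelihood test with Benjamini-Hochberg adjustment). The entry was called higher in 12 tissues, and its largest log2 fold change was in the heart, at 1.95. Most reads shared a start (87.9%), while the most counted sequence held only 24.3% of counts.

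The mirtron entries mir-877-pre and mir-1224-pre were also highest in brain tissues by CPM, at lower levels. mir-877-pre lay between 13.2 and 22.6 CPM in the cerebrum (mean 17.9 ± 3.24 CPM), 10.1 and 20.9 CPM in the brainstem and 7.18 and 18.1 CPM in the cerebellum, and these ranges overlap. By the upper quartile scaling its largest log2 fold change was instead in whole blood, at 3.20, with 2.39 by DESeq2 and 1.74 by TMM scaling. Its share against the arm was 64.8 ± 7.97% in the cerebellum, 53.8 ± 10.4% in the cerebrum, 39.8 ± 9.67% in the brainstem and 26.4 ± 9.29% in whole blood. mir-1224-pre was far below its arm, with 413 against 16940 counts, and reached 0.869 to 4.46 CPM in the cerebrum (log2 fold change 4.08, SE 0.28, adjusted p = 4.77e-27 in edgeR's quasi-likelihood test with Benjamini-Hochberg adjustment).

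Both mirtron hairpins are shown because their reads reach the 3′ end of the intron, where splicing ends the hairpin. Mir877 is at chr20:2816284-2816368 on the plus strand within Abcf1, which encodes a translation factor. Mir1224 is at chr11:93811291-93811375 on the minus strand within Vwa5b2 (both RefSeq, GRCr8). Capitals mark the annotated 5′ arm and the most counted sequence of the entry.
Mir877 hairpin: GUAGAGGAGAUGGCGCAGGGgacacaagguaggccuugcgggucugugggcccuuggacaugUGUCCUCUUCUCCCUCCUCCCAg
Mir1224 hairpin: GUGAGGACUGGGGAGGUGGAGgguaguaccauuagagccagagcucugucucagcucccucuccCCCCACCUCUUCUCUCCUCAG
For mir-1224-pre 90.1% of counts lay on the side without an arm and 74.3% ended at base 85, the last of the hairpin. For mir-877-pre 65.8% lay on that side, 29.5% of counts ended at base 84 and 21.1% at base 85, and 31.8% had no exact match to the rat hairpin.

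mir-504-pre, from an intron of Fgf13, and mir-484-pre were minor against their arms. mir-504-pre had 266 counts against 49154, and 56.4% of them lay opposite the arm. It was highest in the hippocampus, at 1.21 to 3.24 CPM in the 7 libraries that matched their label. mir-484-pre had 201 counts against 17163, did not pass the filter on low counts and was at 0 to 1.71 CPM in the cerebellum, its highest tissue. Its most counted sequence was 17 bases long, the shortest length kept, and 78.1% of its counts lay on the 5′ side, facing miR-484.

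**Figure D3:**
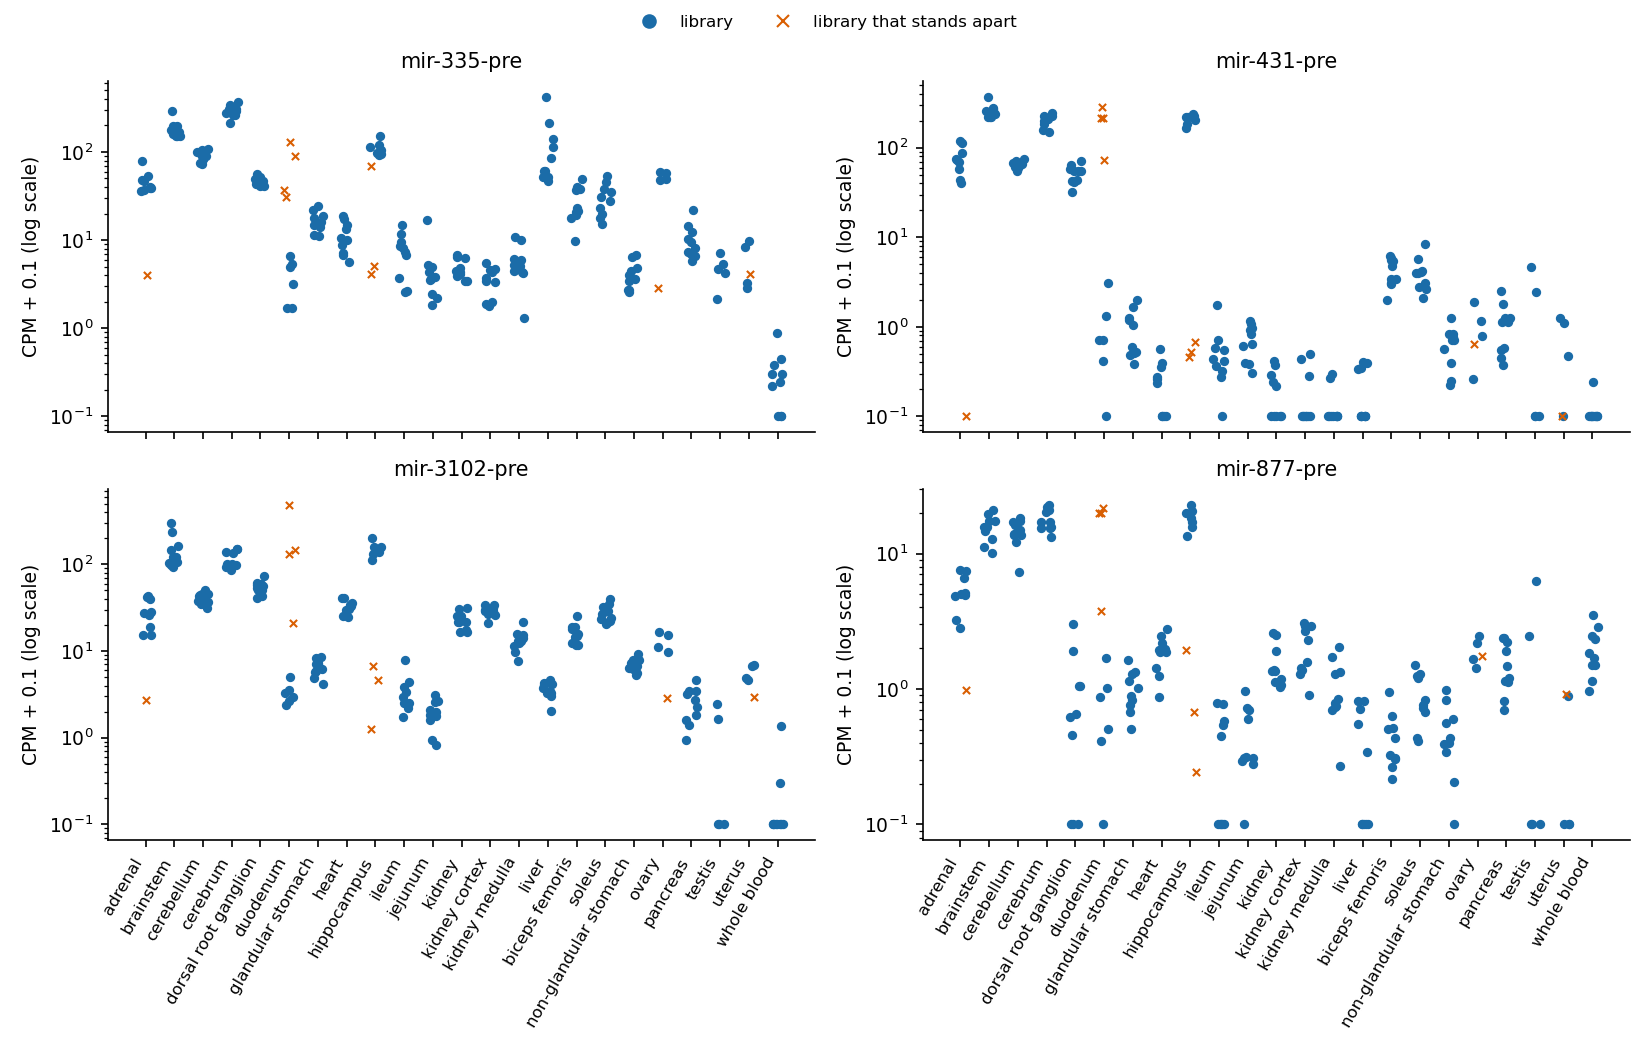
Levels of mir-335-pre, mir-431-pre, mir-3102-pre and mir-877-pre in CPM plus 0.1 on a log axis, by tissue. Each symbol is a library, and crosses mark the 10 libraries that resembled another tissue. Brainstem libraries of mir-431-pre lie at 218 to 371 CPM, the crosses in the duodenum far above its circles, and liver libraries of mir-335-pre at 46.5 to 423 CPM.

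Loop entries were rare beside the 5p arms. The 3 let-7 entries had 884 (let-7f-2-pre), 285 (let-7c-2-pre) and 275 counts (let-7a-1-pre) beside arms with 9037308, 5210088 and 4021045 counts. These arm totals include 5p names that several let-7 loci share. The single 3p names of the locus itself had 17708, 31 and 20 counts. The 3p arms of let-7c-2 and let-7a-1 have the same sequence, so reads on both carry composite names that these counts leave out. Whether let-7c-2-pre and let-7a-1-pre exceeded their 3p arms cannot be told from the single names. let-7 miRNAs are abundant in differentiated tissue, and their hairpins have long loops that the protein LIN28 binds. On the hairpins below, capitals run from the first base of the 5p arm through the entry, and the 3p arm follows in capitals.
Mirlet7f2 hairpin: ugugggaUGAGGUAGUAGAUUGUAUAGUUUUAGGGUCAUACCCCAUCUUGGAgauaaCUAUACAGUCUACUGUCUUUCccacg
Mir29b1 hairpin: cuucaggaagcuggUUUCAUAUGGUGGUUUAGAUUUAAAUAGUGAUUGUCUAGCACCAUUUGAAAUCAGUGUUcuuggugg
Mirlet7f2 is at chrX:24460045-24460127 on the plus strand within Huwe1, which encodes a ubiquitin ligase, and Mir29b1 is at chr4:60618334-60618414 on the minus strand (RefSeq, GRCr8). For let-7f-2-pre 86.9% of counts began at base 30, directly after the 5p arm, which ends at base 29. For let-7c-2-pre 75.4% began at base 36, after an arm ending at base 35, and for let-7a-1-pre 60% began at base 35, after an arm ending at base 34. The reads of mir-29b-1-pre met the other arm: 84.9% ended at base 50, and the 3p arm begins at base 51. They began at base 34 in 95.6% of counts, and so overlap the last bases of the 5p arm, which ends at base 36.

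The loop entries were low in every tissue. let-7f-2-pre lay between 2.64 and 5.41 CPM in the cerebrum (mean 4.24 ± 0.98 CPM, n = 10) and was called higher there by 2.03 on the log2 scale (SE 0.31, adjusted p = 3.64e-09 in edgeR's quasi-likelihood test with Benjamini-Hochberg adjustment). let-7a-1-pre reached 1.64 CPM in the cerebellum, and was called higher there too (2.02, SE 0.35). mir-29b-1-pre was called higher in the liver (2.27, SE 0.35) with 0.713 to 3.18 CPM. At such levels a library holds few reads of an entry, so the order of tissues for let-7c-2-pre and let-7a-1-pre is within the spread between rats.

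Another 4 of the most counted entries had broad lengths, many starts and very uneven libraries. They were mir-7641-2-pre with 108136 counts, mir-6240-pre with 85631, mir-6236-pre with 56427 and, below the 3 arm-like entries described first, mir-6087-pre with 23279. Each held more counts than its annotated arm, with shares of 73.4%, 75.1%, 76.7% and 91.7%. Their most counted sequences held 5.49%, 2.78%, 8.37% and 16.5% of counts. In mir-7641-2-pre 96.1% of counts shared 15 bases with the reads of miR-7641, so entry and arm are largely overlapping stretches, whereas for mir-6240-pre this was 0.0397%. mir-7641-2-pre and mir-7641-1-pre share reads as well: 83.5% of counts of the second hold a run of 15 bases found in the first, so their levels are not independent.

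All 4 were highest in the ileum by mean over all libraries, and the ileum libraries varied by orders of magnitude. mir-7641-2-pre was at 6.87 CPM in the lowest, 445 in the median and 6304 CPM in the highest ileum library. mir-6240-pre was at 8.28, 382 and 5769 CPM, and mir-6236-pre at 10.9, 204 and 3965 CPM. For mir-6087-pre the values were 6.34, 249.7 and 2903 CPM. The SD exceeded the mean in each case, as for mir-7641-2-pre at 1571 ± 2197 CPM. The ileum was called higher for all 4 in edgeR's quasi-likelihood test, with log2 fold changes of 5.81, 5.26, 4.26 and 7.06 and Benjamini-Hochberg adjusted p of 1.36e-36 or less.

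A single rat gave the highest ileum value of every one of the 10 entries with their highest mean in the ileum. This was the library of rat 9, in which the 10 entries summed to 19246 CPM, against 34.2 CPM in rat 4, the lowest. The library of rat 9 had 1041508 counts, the fewest of the ileum, and an RNA integrity number of 8.6. Its intestinal markers miR-215 and miR-194-5p stood at 237388 CPM, against 210317 CPM in rat 4, so both libraries matched their label. Without it, 8 of the 10 entries had their highest mean in the ileum. The others, mir-7641-2-pre at 1045 CPM and mir-6236-pre at 269.95 CPM in the ileum, were then higher in the pancreas, at 1394 and 313 CPM. Of the 89 entries 10 (11.2%) had their highest mean in the ileum, against 4.02% of single mature names.

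Other tissues also had single high libraries of the same entries. The 10 entries summed to 17254 CPM in the pancreas of rat 11, where other pancreas libraries lay at or below 2727 CPM, and to 2520 CPM in the jejunum of rat 4. In the cerebrum of rat 4 they summed to 2939 CPM. The RNA integrity number was 6.3 in the pancreas of rat 11, 8.9 in the jejunum of rat 4 and 8.0 in the cerebrum of rat 4. Pancreas libraries lay between 4.9 and 6.8, with the lowest mean of the tissues that have such numbers (6.12). Whether RNA breakdown, digestion or library size had a part in these summed levels was not tested.

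**Figure D4:**
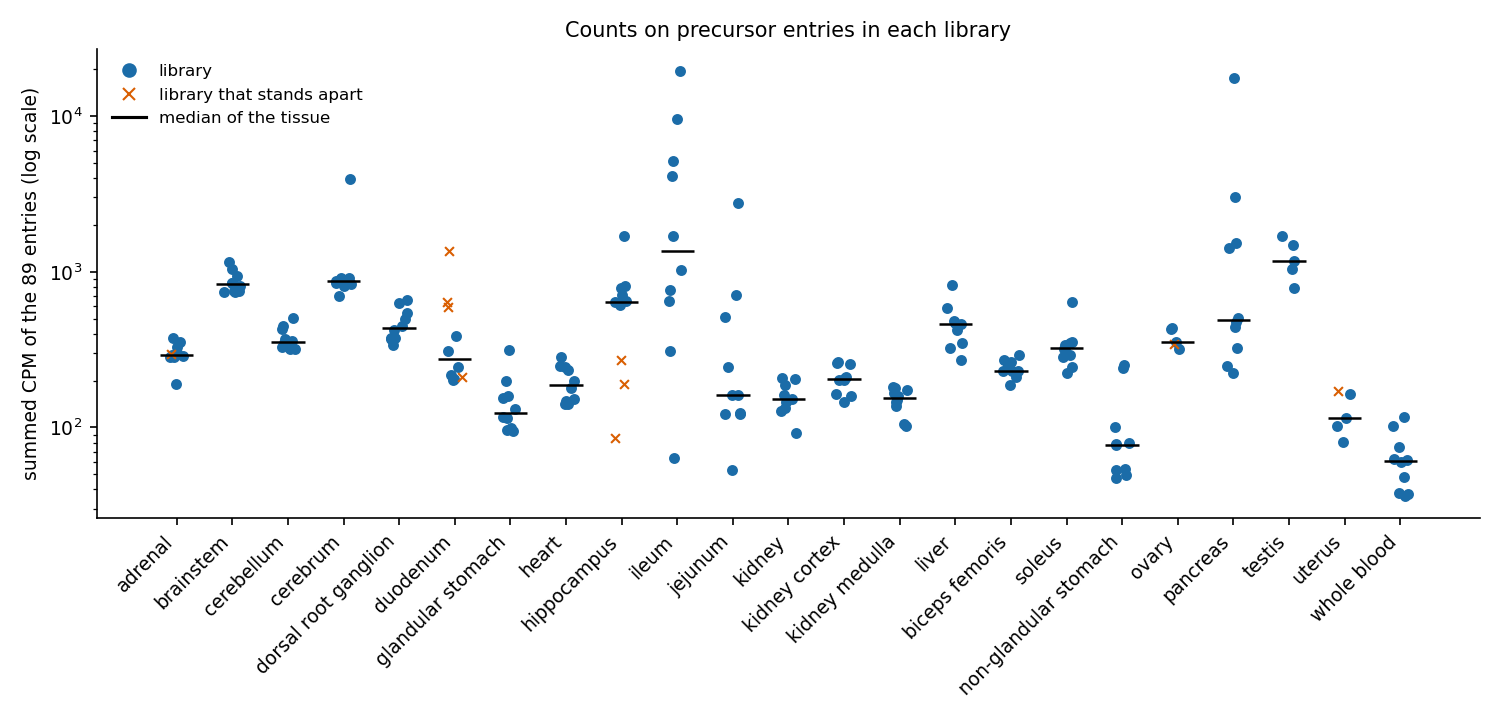
Summed level of the 89 entries in each library, in CPM on a log axis, by tissue; circles are libraries, crosses the 10 libraries that resembled another tissue, and the line is the median of the tissue. Ileum libraries spread from 63.6 to 19614 CPM and pancreas libraries from 225 to 17551 CPM, whereas whole blood stays between 36.1 and 117 CPM.

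mir-3535-pre and the predicted entries among the most counted were spread over many tissues. mir-3535-pre had 22225 counts (58.7% of entry and arm), was at 59.8 to 146 CPM in the testis, its highest tissue, and was called higher in the liver by 2.08 (SE 0.19). chr2_7333-pre had 16997 counts, with 10.7 to 90.3 CPM in the testis. Its most counted sequence lies within 5.8S ribosomal RNA, another component of the large subunit, which again is background knowledge and was not tested here. chr1_3089-pre had 6992 counts and was below its arms, which held 40724. chr2_8843-pre, chr10_30608-pre and chr1_2335-pre each had a dominant short sequence, which is shown for that reason.
chr2_7333-pre: tgcgtcgatgaagaacg
chr2_8843-pre: tcggagactttgttttt
chr10_30608-pre: ctgtaccaccttgtcggg
chr1_2335-pre: tctcatctgtctgtggggct
These made up 61.6% (chr2_8843-pre), 84.0% (chr10_30608-pre) and 83.8% (chr1_2335-pre) of the entry's counts, against 3.75% for chr2_7333-pre. chr10_30608-pre lay between 7.65 and 22.7 CPM in 4 testis libraries and at 275 CPM in rat 6.

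Some entries had almost no reads under the single name of an arm. The share on the entry was 99.9% each for mir-712-pre and chr7_21987-pre, 98.7% for mir-3473f-pre and 98.1% for mir-1983-pre. Composite names that hold the arm, left out of these shares, change the latter pair: with them the share was 83.3% for mir-3473f-pre and 8.34% for mir-1983-pre, whose arm has 17635 counts under a composite name. miR-712 is known to arise from the spacer of the ribosomal RNA precursor and not from a classical hairpin. mir-712-pre was at 3.85 to 6.21 CPM in the brainstem and 3.57 to 6.18 CPM in the cerebrum, which do not differ beyond their spread. mir-1983-pre had its highest mean in the duodenum at 1.22 to 4.91 CPM, overlapping the cerebrum and the hippocampus. Without the libraries that resembled another tissue its highest mean was in the hippocampus, at 2.93 CPM, against 2.65 CPM in the duodenum. chr7_21987-pre reached 5.62 CPM in the liver. In all, 28 of the 52 members with an arm of the same number had more counts than their arms, or 26 with composite names added to the arms, which put mir-1983-pre and chr12_34260-pre below theirs. Another 37 had no such arm, of which 30 were predicted.

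The testis was the tissue of the highest mean for 40 of 89 entries (44.9%), against 15.9% of single mature names. Of these 40, 12 were miRBase-named and 28 predicted. Many of them rest on few reads: 22 of the 28 predicted ones had 0 counts in at least 1 testis library, and 22 were highest in rat 6. In a testis library 1 count equals 1.53 to 2.66 CPM, but at most 1.06 CPM in any other library. By the median over libraries in place of the mean, 25 entries were highest in the testis, and without the testis library of rat 6, 32.

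A smaller group had every testis library above every library of any other tissue. There were 8 such entries with any tissue on top, all of them in the testis (8.99% of members, against 10.1% of all 1649 names and 19.5% of single mature names with 100 or more counts). They were mir-3473f-pre, mir-3470b-pre, mir-466q-pre, mir-5098-pre, mir-1954-pre, mir-3470a-pre, mir-1195-pre and mir-3472-pre, all from mouse hairpins. The share of such entries was below that of both comparison sets. Several rest on few reads: over all 5 testis libraries mir-466q-pre and mir-3470a-pre had 38 counts each and mir-3472-pre had 44. mir-3473f-pre had 274, 481, 349, 241 and 324 CPM in the 5 testis libraries and at most 20.2 CPM elsewhere, in the ileum of rat 9. Its log2 fold change was 5.27 (SE 0.19, adjusted p = 3.79e-65 in edgeR's quasi-likelihood test with Benjamini-Hochberg adjustment). mir-1195-pre had 10.3, 42.5, 49.0, 26.8 and 54.0 CPM in the testis, and at most 1.92 CPM elsewhere, with a log2 fold change of 6.98 (SE 0.40). mir-1954-pre had 23.5 to 76.5 CPM in the testis against at most 2.41 CPM elsewhere (6.76, SE 0.39).

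Others came closer to the rest of the tissues. mir-5098-pre lay between 22.7 and 63.8 CPM in the testis, and the highest other library was a dorsal root ganglion library at 8.49 CPM. mir-3470b-pre lay between 18.6 and 47.8 CPM, just above a dorsal root ganglion library at 17.2 CPM. mir-466q-pre lay between 6.19 and 26 CPM, from 3 to 17 counts a library, against 2.20 CPM at most elsewhere. Reads are shared within this group: 64.5% of mir-1954-pre counts hold 15 bases found in mir-5098-pre and 11.7% of mir-3470a-pre counts hold 15 bases found in mir-3470b-pre.

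**Figure D5:**
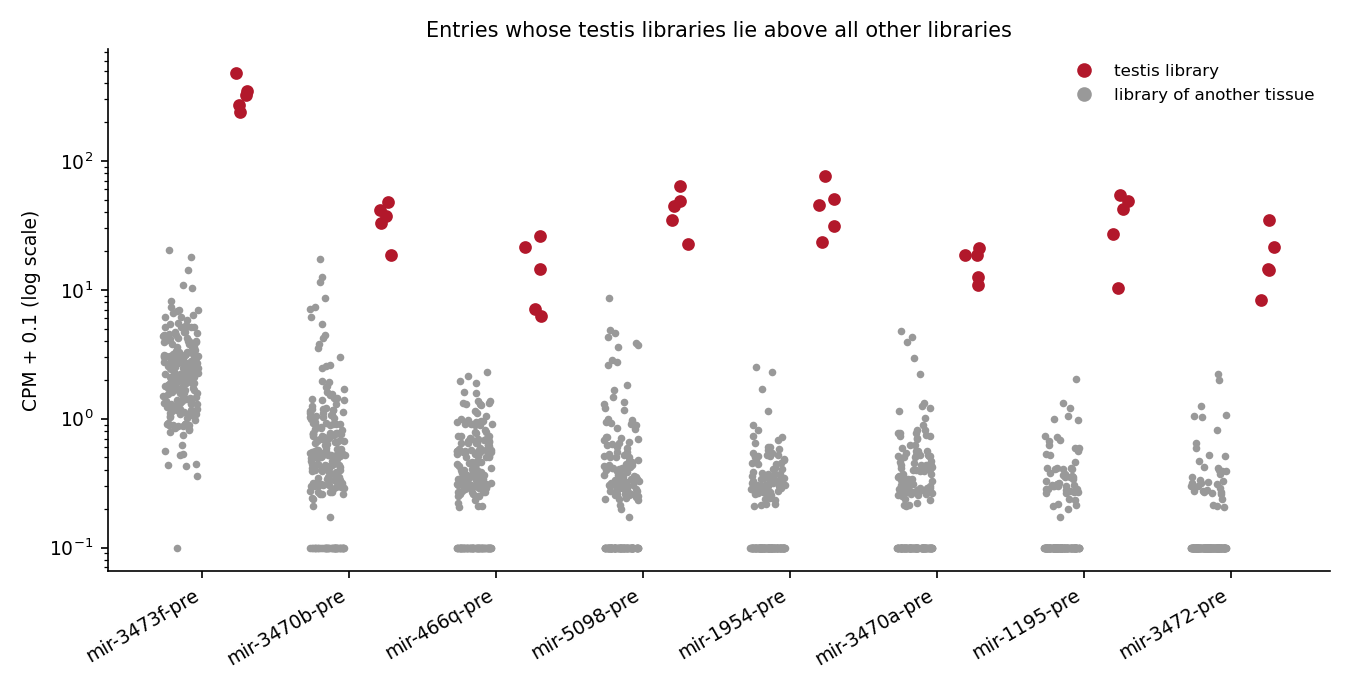
Levels in CPM plus 0.1 on a log axis of the 8 entries with every testis library above all others; each point is a library, red for the testis and grey for any other tissue, and the row at the bottom holds libraries with 0 counts. Testis libraries of mir-3473f-pre lie at 241 to 481 CPM and all other libraries at or below 20.2 CPM.

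Entries that the study itself lists among tissue-associated names were followed as well. They were chosen on these libraries, so their direction is not independent. The paper lists mir-466q-pre for whole blood, mir-504-pre for the cerebrum, and mir-328-pre and mir-5131-pre for the liver. Its rule rests on raw counts found in a single tissue, not on mean levels. By mean CPM, mir-466q-pre was highest in the testis and mir-504-pre in the hippocampus, as given above. mir-466q-pre reached 2.03 CPM at most in whole blood, although its log2 fold change there was 4.28 (SE 0.37) by the upper quartile scaling. mir-328-pre (303 counts) lay at 0 to 8.25 CPM in the testis and 0.291 to 1.43 CPM in the liver, and was called higher in both (2.09, SE 0.61, and 1.54, SE 0.42). The testis call was lost without rat 5 (1.58, adjusted p = 0.0781), and the liver call with DESeq2 (0.60, adjusted p = 0.205) or TMM scaling (0.94, adjusted p = 0.0625). mir-5131-pre was at 0 to 1.43 CPM in the liver and mir-1928-pre, listed for the cerebellum, at 0.169 to 0.656 CPM there. Its highest mean was in the dorsal root ganglion, at 0.944 to 8.45 CPM.

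Across all entries and tissues, calls were somewhat rarer than for other names. Of the 89 entries 76 passed the filter on low counts and were tested with 1641 names over 207 samples, so these counts do not speak for the 13 others. Of 1748 pairs of entry and tissue, 301 (17.2%) were called higher, against 23.4% of pairs of all names, and 162 (9.27%) lower, against 11.3%. The jejunum had 33 of 76 entries higher (43.4%; background 27.4%) and the ileum 28 (36.8%; background 19.3%). In the pancreas 29 were higher (38.2%, background 29.5%). In the liver 26 were higher (34.2%, background 30.8%), in whole blood 29 (38.2%, background 36.1%) and in the testis 17 (22.4%, background 19.3%), each near the background. The brainstem had 38 entries lower (50%; background 30.1%) and the cerebrum 28 (36.8%; background 27.7%). The median log2 fold change of the tested entries was 1.01 in the jejunum, against 0.19 for all names, and -1.35 in the brainstem, against -0.91. In every other tissue the members' share of higher calls was below the background. Between 8 and 13 entries were higher in the duodenum (13; background 30.7%), the non-glandular stomach (13; background 22.1%), the soleus (13; background 19.3%), the heart (11; background 28.9%), the adrenal (9; background 18.2%), the hippocampus (9; background 28.9%), the glandular stomach (9; background 19.2%), the kidney cortex (9; background 21.3%), the biceps femoris (8; background 18.3%), the cerebrum (8; background 24%) and the cerebellum (8; background 23.4%). Between 2 and 7 were higher in the brainstem (7; background 22.3%), the dorsal root ganglion (7; background 13.3%), the kidney (6; background 23.8%), the kidney medulla (5; background 27.3%), the ovary (2; background 19.6%) and the uterus (2; background 15.2%).

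Lower calls in the other tissues numbered 0 to 17. The cerebellum had 17 (22.4%; background 19.2%), the hippocampus 14 (18.4%; background 11.8%) and the adrenal 9 (11.8%; background 11.6%), each at or above the background. The testis and whole blood had 6 each (background 16.8% and 16.6%) and the kidney 5 (6.58%; background 5.91%). There were 4 in the biceps femoris (background 13.2%), the kidney medulla (background 6.03%) and the non-glandular stomach (background 9.02%). There were 3 in the liver (background 9.38%), the ileum (background 12.2%), the jejunum (background 13.1%), the pancreas (background 13.3%), the soleus (background 11.5%), the glandular stomach (background 4.75%) and the kidney cortex (background 5.3%). The heart and the ovary had 2 each (background 7.98% and 5.36%), the duodenum and the dorsal root ganglion 1 each (background 4.45% and 3.78%) and the uterus 0 (background 1.28%). The scaling moved several of these counts: with DESeq2 the liver had 5 entries higher and 11 lower, whole blood 14 higher, and the brainstem 15 and the cerebrum 16 lower. Also with DESeq2, the heart had 2 higher and 11 lower, the kidney 1 and 17, the kidney medulla 0 and 13 and the kidney cortex 1 and 7, so the balance of calls in these 4 tissues turned from higher to lower. The pancreas had 18 higher with DESeq2, 29 with TMM scaling and 15 with re-extracted RNA as a covariate, and all 10 of its libraries were re-extracted. With TMM scaling the liver had 13 higher, whole blood 8 higher and 11 lower, and the brainstem 16 and the cerebrum 14 lower. The jejunum (32 and 31 higher with DESeq2 and TMM) and the ileum (27 and 28) kept theirs.

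Females and males differed in few entries. Of 817 pairs of an entry and a tissue, over 43 entries and 19 tissues, 6 passed the threshold (0.734%; background 1.49%), 2 higher in females (background 0.741%) and 4 lower (background 0.751%). The largest level was that of mir-7641-2-pre in the pancreas, at 28.5 to 11185 CPM in females (median 592) and 9.54 to 435 CPM in males (median 91.3). The log2 fold change was 4.24 (SE 0.89, adjusted p = 0.00479 in edgeR's quasi-likelihood test with Benjamini-Hochberg adjustment), the groups overlapped, and without rat 11 it was 1.76 (adjusted p = 0.771). In the jejunum mir-7641-2-pre and mir-6087-pre were called lower in females (-3.38 and -3.06), and without rat 4 neither was (-1.55 and -1.09, adjusted p = 1.0 for both). chr10_30608-pre was called higher in female whole blood (4.2), and without rat 9 it was 1.23 (adjusted p = 0.783). Both hippocampus calls, chr17_40701-pre (-3.43) and chr13_36374-pre (-6.42), were lost without the libraries that resembled another tissue, with adjusted p of 0.17 and 1.0. The log2 fold change of chr17_40701-pre was then -3.76, no smaller than before, with fewer libraries, and that of chr13_36374-pre was 0. So each of the 6 calls was lost when 1 rat or the libraries that stood apart were left out.

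mir-335-pre in the liver showed the reverse case. Females lay between 85.8 and 423 CPM (mean 195 ± 136 CPM, n = 5) and males between 46.5 and 61.4 CPM (mean 54.6 ± 6.36 CPM, n = 5), with no overlap. The log2 fold change was 1.63 (SE 0.45), and the adjusted p of 0.173 in edgeR's quasi-likelihood test missed the threshold. Without the 10 libraries that resembled another tissue, none of them a liver library, it was 1.69 (adjusted p = 0.0017), and with DESeq2 it was 1.69 (adjusted p = 0.00875). The annotated arm miR-335 had 157 to 733 CPM in females and 89.9 to 166 CPM in males, so the arm overlapped slightly between the sexes. Of the 10 liver libraries 5 came from re-extracted RNA, mostly those of females, and the fits of sex held no term for re-extraction. Sex and re-extraction therefore cannot be fully told apart in the liver. The comparison was noticed in the values and is a description.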

How the data were processed

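Small RNA of 23 rat tissues was sequenced in 458 runs, summed to 215 libraries; 14 runs that repeat a lane were used only in an alternative. The deposited values are counts, without normalization. Per the study's methods, the authors trimmed reads with cutadapt (1.4.1 in the submitters' processing notes), discarded reads under 17 bases, aligned them with miRDeep2's quantifier to rat, mouse, human and C. elegans hairpins of miRBase and to hairpins predicted from these data, and gave reads off the annotated arms a -pre name and reads on several hairpins a composite name, which was not used here. Cross-species and composite naming decide which reads a -pre entry receives. No column was without a sample (0 columns).

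The members, the gene lists and the comparisons were chosen with earlier results of these data known. Entries named are the 15 with the most counts, those with 1000 or more counts above their arms, the member with the largest fold change per tissue whose every library exceeds the other tissues' means, the sex calls, entries the study lists, and those at the threshold. Others, such as the loop entries, were named after their values were seen. An arm of the same number is a single mature name that equals the entry's name without -pre, or without its locus suffix.

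Each tissue was compared with the mean of the other 22 over 207 samples, and females with males in 19 tissues over 1122 names, by edgeR's quasi-likelihood F test (4.0.16, run in R 4.3.3) after scaling to the upper quartile and removal of low names by filterByExpr. P values were adjusted by Benjamini-Hochberg over all names of a tissue, with 0.05 as the threshold, and measure the spread between rats. The dorsal root ganglion is an exception, since its 2 samples are pools and hold no spread between animals. This spread was estimated for a name over all tissues together. In the main fit it therefore includes the libraries that resembled another tissue. The main fit has no term for the rat. All adjusted p values are from this fit unless DESeq2 (1.42.0) is named. On simulated counts with 200 changed names the scripts were tested before use. For the dorsal root ganglion, technical libraries were summed to 1 sample for each of the 2 pools. Tissues other than the dorsal root ganglion came from the same rats, and numbers therefore pair samples. With tissue means removed, the correlation between libraries of 2 such tissues had a median of 0.0123 where the same rat gave both (2000 pairs). It was -0.00545 otherwise (18025 pairs). Alternatives were TMM scaling, DESeq2, no filter (with scaling factors from the names that pass it), all runs, a re-extraction covariate, the rat as a block, each rat left out, and the libraries that resembled another tissue left out. Leaving out the libraries with displaced starts, testis rat 6 or ileum rat 9 was chosen after seeing the data. Sequences were placed on RefSeq hairpins (GRCr8) by exact match; 9 members had a hairpin there. Shared reads were sought as runs of 15 bases. Python 3.11.15 with numpy 2.4.6, pandas 2.3.3 and matplotlib 3.10.9 served for the rest. Depth sets the precision: 1 count is 1.53 to 2.66 CPM in the testis. Reads carry no molecular identifiers, so repeated counts may be copies of a molecule.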

Additional observations from a re-analysis of the deposited data

Results flagged for a closer look

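In 50 groups of 4 to 10 libraries, the highest or lowest library was compared with its neighbour. Of these, 15 lay farther out than Dixon's 95% critical value allows. Chance gives about 1 in 20 only for normally distributed values in separate groups. CPM values are skewed here and the summed levels contain the single entries, so the 15 are a description only. In the ileum, rat 9 stood out for mir-6240-pre at 5769 CPM (others 8.28 to 2769), for mir-6236-pre at 3965 CPM (others 10.9 to 836) and for mir-6087-pre at 2903 CPM (others 6.34 to 1079). In the brainstem, rat 9 had 371 CPM of mir-431-pre (others 218 to 279). In the testis, rat 6 had 275 CPM of chr10_30608-pre (others 7.65 to 22.7), and in the pancreas rat 4 had 5.15 CPM of chr17_40701-pre (others 0.261 to 2.85).

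The other cases concern the summed level of the 89 entries. The high libraries were those of rat 4 in the cerebrum at 3936 CPM (others 700.0 to 908) and in the jejunum at 2769 CPM (others 53.4 to 712), of rat 7 in the duodenum at 1354 CPM (others 202 to 637), of rat 8 in the glandular stomach at 314 CPM (others 94.9 to 198) and of rat 9 in the hippocampus at 1698 CPM (others 85 to 815) and in the ileum at 19614 CPM (others 63.6 to 9606). Rat 11 was high in the soleus at 639.9 CPM (others 223 to 353) and in the pancreas at 17551 CPM (others 225 to 3030.0). The adrenal library of rat 4 was low, at 191 CPM (others 282 to 377). The duodenum library of rat 7 is one of those that resembled another tissue.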

How the results depend on the processing

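Pairs of entry and tissue called higher numbered 301 and lay between 207 and 326 under all alternatives (277 to 295 with a rat left out), and pairs called lower numbered 162, between 126 and 183 (142 to 154 with a rat left out). With the rat as a replicate block, and without the pooled dorsal root ganglion, 207 were higher and 150 lower over 56 entries; the pairing changed no call among the single fold changes recomputed with it. The sex calls moved most: 6 pairs became 21 with DESeq2 and 22 without the filter on low counts, and 2 to 14 with a rat left out. For the sexes a rat is nested in a sex, so no paired analysis was possible there. Entries highest in the testis fell from 40 to 25 with the median in place of the mean (31 to 44 with a rat left out, 32 without testis rat 6, chosen after seeing the data), and those highest in the ileum stayed at 8 to 13. The log2 fold change of chr10_30608-pre in whole blood was 2.23, turned to -0.18 without rat 9 and reached at most 2.52 with another rat left out; the cause was not tested. Of the values of single entries under an alternative, 828 kept direction and side of the threshold, 38 lost and 2 gained a call. Depth limits the testis and the entries at few CPM most.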
